A study of Mus musculus with 24 samples.

Results

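The comparison set male mouse epiblast stem cells (EpiSCs) that overexpress Sox2 and were grown in ES cell medium against their parent EpiSCs. It used 6 of the 24 arrays of the series, chosen by their titles: EpiSox2mE1 and EpiSox2mE2, each on 2 arrays and pooled as 4, and EpiSCm on 2. A gene was counted as moved alike if it was called in EpiSox2mE1 and in EpiSox2mE2, each against EpiSCm, with the same sign. By that rule 1844 of 8932 genes moved alike, in a fit over all 24 arrays. The count was 1154 in a fit over the 8 arrays of the GOF18 EpiSC family and 805 over the 6 arrays compared.

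EpiSCs are derived from the epiblast after implantation and hold the primed form of pluripotency, which depends on FGF and on Activin or Nodal signals. ES cells hold the naive form, which leans on leukaemia inhibitory factor (LIF) and its effector Stat3, and on factors such as Klf2, Klf4, Esrrb and Zfp42. Sox2 binds DNA beside Oct4, the product of Pou5f1, at many genes of both states. Primed cells stand close to the primitive streak, the site in the embryo where mesoderm and endoderm form under Wnt and Nodal signals.

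EpiSCm are GOF18 male EpiSCs, and no medium is stated for them. GOF18 names a mouse strain in which genomic sequence of Pou5f1 drives a fluorescent reporter. EpiSox2mE1 and EpiSox2mE2 are the GOF18 male line with added wild-type Sox2, kept in ES cell medium and named ESC-like 1 and ESC-like 2. The same line with Sox2 in conditioned EpiSC medium (EpiSox2mL2) and male ES cells (ESCm) served as 2-array references, as did female OG2 ES cells and EpiSCs (ESCf and EpiSCf) for genes that differ between the naive and primed states. All GOF18 groups share the reporter background. The promoter of the Sox2 transgene, the number of clones and the composition of either medium are not given in the sources used here. No group carries Sox2 in ES cell medium beside a parent known to be in that medium, so the effects of Sox2 and of the medium cannot be told apart in this comparison. The design text calls the arrays biological replicates without saying that they came from separate cultures, so p-values measure the spread between replicate arrays. That spread was estimated over all 12 groups of the series, not over the arrays compared alone.

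Levels are log2 normalized intensities, on which 1 unit is a doubling. A gene is called undetected where its detection p is not under 0.01. The median signal before normalization was 90.2 to 101 on the 8 arrays of the GOF18 EpiSC family and 119 to 152 on the others. Detected probes made up 40.4% to 44.4% of all probes on the 6 arrays compared, and replicate arrays correlated at 0.987 in EpiSCm, 0.9906 in EpiSox2mE1 and 0.9858 in EpiSox2mE2 across genes, which are not independent replicates. All other groups correlated more closely than EpiSCm and EpiSox2mE2, from 0.9906 in EpiSox2mE1 to 0.9949 in ESCm, and they share in the estimate of spread. The number of arrays limits the precision. In a bulk measurement, fewer cells of a type and less RNA per cell cannot be told apart.

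Sox2 itself was read by a pair of kept probes. The brighter stood at 8.31 and 8.07 in EpiSCm, at 9.32 and 9.43 in EpiSox2mE1 and at 9.46 and 9.53 in EpiSox2mE2. All 4 ESC-medium arrays lay above both parent arrays and near the ES cell arrays at 9.66 and 9.55. The pooled rise was 2.37-fold (log2 1.24, SE 0.11, limma adjusted p = 1.16e-07). The dimmer probe was undetected in EpiSCm at 4.64 and 4.83 and stood at 5.34 to 5.77 in the ESC-medium cells, where 3 of the 4 arrays detected it. It stood at 10.55 on each ES cell array, far above its level in the cells with added Sox2. Which transcripts either probe reads was not analysed here. The male-specific gene Eif2s3y was detected on all arrays of EpiSCm, EpiSox2mE1, EpiSox2mE2, EpiSox2mL2 and ESCm.

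Of the genes tested, 1366 (15.3%) were higher and 1690 (18.9%) lower in the pooled ESC-medium cells than in EpiSCm at an adjusted p under 0.05. EpiSox2mE1 had 1185 higher (13.3%) and 1395 lower (15.6%), and EpiSox2mE2 had 1122 higher (12.6%) and 1440 lower (16.1%). Genes moved alike were 815 higher (9.12%) and 1029 lower (11.5%), and 8 genes were called in opposite directions. Both comparisons use the same EpiSCm arrays, so the count moved alike is not a repeat in independent material. In 1835 of the 1844 the 4 ESC-medium arrays did not overlap the 2 parent arrays. The genes were called on these same arrays, so that separation largely follows from the calls and adds no support. At least 2-fold changes in each of EpiSox2mE1 and EpiSox2mE2 were seen for 177 higher (1.98%) and 227 lower genes (2.54%). The balance of directions depended on scaling: with median scaling in place of quantile normalization, 269 genes moved alike higher and 1142 lower, with 601 higher and 1236 lower in EpiSox2mE1, 328 and 2400 in EpiSox2mE2, and 556 and 2150 in the pooled comparison. The median pooled change of all genes was -0.025 by quantile normalization and -0.158 by median scaling.

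Promoters are shown for 4 risers because Sox2 works with Oct4, whose octamer motif is ATGCAAAT. Windows of 300 bases, from 250 before to 50 after the start, came from RefSeq on GRCm38.p6 and matched 7265 of the 8932 genes, with 136 of the rises and 178 of the falls of at least 2-fold in each. The octamer, read on both strands, was in 7 of the 136 rises (5.15%), in 4 of the 178 falls (2.25%) and in 118 of all 7265 (1.62%). The 7 were Evx1, Tnc, Cdx2, H2bc12, H2bc14, Elf3 and Zfp428. H2bc12 and H2bc14 are histone genes of the same family, so they may not be independent entries. A match is a run of letters and not a shown binding site. The 4 with the largest rise follow, 5′ to 3′ on the gene's strand, with the octamer or its reverse complement in capitals.
Evx1, chr6:52313248-52313547, plus strand: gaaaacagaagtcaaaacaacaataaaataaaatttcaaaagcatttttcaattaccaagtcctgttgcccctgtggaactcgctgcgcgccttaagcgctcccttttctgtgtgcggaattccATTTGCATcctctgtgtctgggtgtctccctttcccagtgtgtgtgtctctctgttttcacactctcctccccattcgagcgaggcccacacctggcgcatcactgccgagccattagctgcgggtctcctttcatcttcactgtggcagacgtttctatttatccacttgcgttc
Tnc, chr4:64046966-64047265, minus strand: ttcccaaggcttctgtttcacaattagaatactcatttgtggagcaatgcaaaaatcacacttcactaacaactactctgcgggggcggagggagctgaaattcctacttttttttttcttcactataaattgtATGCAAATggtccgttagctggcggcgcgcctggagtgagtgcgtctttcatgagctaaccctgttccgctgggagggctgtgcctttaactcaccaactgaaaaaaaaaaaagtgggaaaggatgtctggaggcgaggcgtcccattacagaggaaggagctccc
Cdx2, chr5:147307200-147307499, minus strand: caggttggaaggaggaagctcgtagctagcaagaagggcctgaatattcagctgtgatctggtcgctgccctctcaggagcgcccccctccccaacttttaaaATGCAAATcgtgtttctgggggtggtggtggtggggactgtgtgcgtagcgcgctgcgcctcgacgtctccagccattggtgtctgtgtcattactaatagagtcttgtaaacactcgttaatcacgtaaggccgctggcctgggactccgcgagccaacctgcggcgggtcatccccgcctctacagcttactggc
H2bc12, chr13:22035571-22035870, plus strand: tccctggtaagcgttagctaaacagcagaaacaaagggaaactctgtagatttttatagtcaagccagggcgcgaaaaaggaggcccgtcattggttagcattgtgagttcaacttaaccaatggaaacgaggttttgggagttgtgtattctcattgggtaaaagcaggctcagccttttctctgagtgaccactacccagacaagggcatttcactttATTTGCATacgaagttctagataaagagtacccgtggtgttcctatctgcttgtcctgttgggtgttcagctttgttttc
The octamer begins 126 bases before the start in Evx1, 116 in Tnc, 147 in Cdx2 and 30 in H2bc12.

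Of the genes of those promoters, all chosen for their rise, Evx1, Cdx2 and Tnc were near background in the parent and H2bc12 was not. Evx1, a homeobox gene of the posterior primitive streak, stood at 5.42 and 4.75 in EpiSCm, at 7.48 and 7.18 in EpiSox2mE1 and at 7.45 and 7.60 in EpiSox2mE2, a rise of 5.07-fold. Cdx2, a homeobox gene of trophectoderm and of the posterior embryo, was undetected in EpiSCm at 4.45 and 4.44 and reached 6.14 to 6.61, at least 2.07-fold higher. Tnc, which encodes the matrix protein tenascin C, went from undetected at 4.68 and 4.58 to 6.59 to 6.67, at least 2.52-fold higher. H2bc12, a replication-type histone gene, rose 2.53-fold from 6.88 and 6.99 to 8.07 to 8.46, and near-identical histone copies may share its probe. The Sox-type letters CATTGT were in 11.8% of the rises, 6.18% of the falls and 8.56% of all promoters, and CTTTGT in 23.5%, 18% and 16.4%. The joined form TTGTNATGC was in 0 of the 136 rises, 0.562% of the falls and 0.454% of all, and the STAT-type TTCCNGGAA in 2.21%, 0 of 178 and 1.58%. The joined Sox and octamer letters can overlap the octamer search.

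The 15 largest rises held naive pluripotency genes, streak genes and genes of the extracellular matrix. Dnmt3l, a cofactor of the de novo DNA methyltransferases, stood at 6.91 and 7.01 in EpiSCm, at 12.01 and 11.86 in EpiSox2mE1 and at 12.10 and 11.85 in EpiSox2mE2. That 31.9-fold rise (log2 5.0, SE 0.11, adjusted p = 6.2e-16) was the largest among genes moved alike, at log2 4.97 in EpiSox2mE1 and 5.02 in EpiSox2mE2. Dppa5a, an RNA-binding protein of ES cells and early embryos, rose 24.9-fold, from 9.28 and 8.93 to 13.52 and 13.74 and to 13.91 and 13.79. Dppa4, a chromatin-associated pluripotency protein, rose 9.87-fold, from 7.81 and 7.80 to 10.66 and 10.54 in EpiSox2mE1 and 11.72 and 11.50 in EpiSox2mE2. Of its other kept probes, one was undetected in EpiSCm and detected on all 4 ESC-medium arrays, at 6.44 to 7.14, and one was undetected on all 6.

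Sp5, a zinc-finger gene induced by Wnt signals, was 16.3-fold higher (log2 4.03, SE 0.13, adjusted p = 3.87e-14). Its 4 ESC-medium arrays, at 11.53 to 11.69, lay within a narrow range and far above the parent arrays at 7.73 and 7.47. En1, a homeobox gene of the midbrain-hindbrain boundary, was undetected in EpiSCm at 4.47 and 4.74 and stood at 8.48, 8.23, 8.41 and 8.88 in the ESC-medium cells, at least 9.24-fold higher. Fst, which encodes follistatin, a secreted inhibitor of Activin, rose 13.5-fold from 8.24 and 7.50 to 11.38 to 11.84. Snai1, the repressor that drives the epithelial to mesenchymal change in the streak, was undetected at 4.80 and 5.33 and reached 7.76 to 8.24, at least 6.63-fold higher.

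The other leading rises were mixed in role. Klf2 rose 10.3-fold, Ccno, a cyclin-like gene, by 2.85 (log2) and Gbx2 by 2.68. Msx1, a BMP-responsive homeobox gene, rose by 2.47 and Slpi, a secreted protease inhibitor, by 2.46. Matrix genes were among them: Bgn (biglycan) was at least 8.59-fold higher, Fbln2 (fibulin 2) rose by 2.72 (log2), and Lox (lysyl oxidase) was at least 3.75-fold higher, from undetected at 4.58 and 4.59 to 6.79 to 7.65. Because such genes mark fibroblasts, which serve as feeder cells, the whole fibroblast and feeder list is given here. Of its 21 tested members 5 moved alike up (Lox, Acta2, Col6a1, Col1a1 and Cav1), 4 moved alike down (Tgfbi, Ccn2, Ccn1 and Tagln), and 2 were undetected on all 6 arrays. The 5 rises became 2 in the fits over fewer arrays and 3 without replicate 2 of EpiSCm. Its summed linear intensity was 7831 to 7929 in EpiSCm, 5747 to 6661 in the ESC-medium cells, 10538 to 10686 in EpiSox2mL2 and 9931 to 10322 in ESCm. Col1a1, a defining collagen, was undetected in EpiSCm at 4.73 and 4.84 and stood at 5.58 to 6.74 in the ESC-medium cells, at least 1.64-fold higher, while Col3a1 was at 4.74 and 4.58 against 4.52 to 5.44. The part of such cells in the leading rises was not tested.

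**Figure D1:**
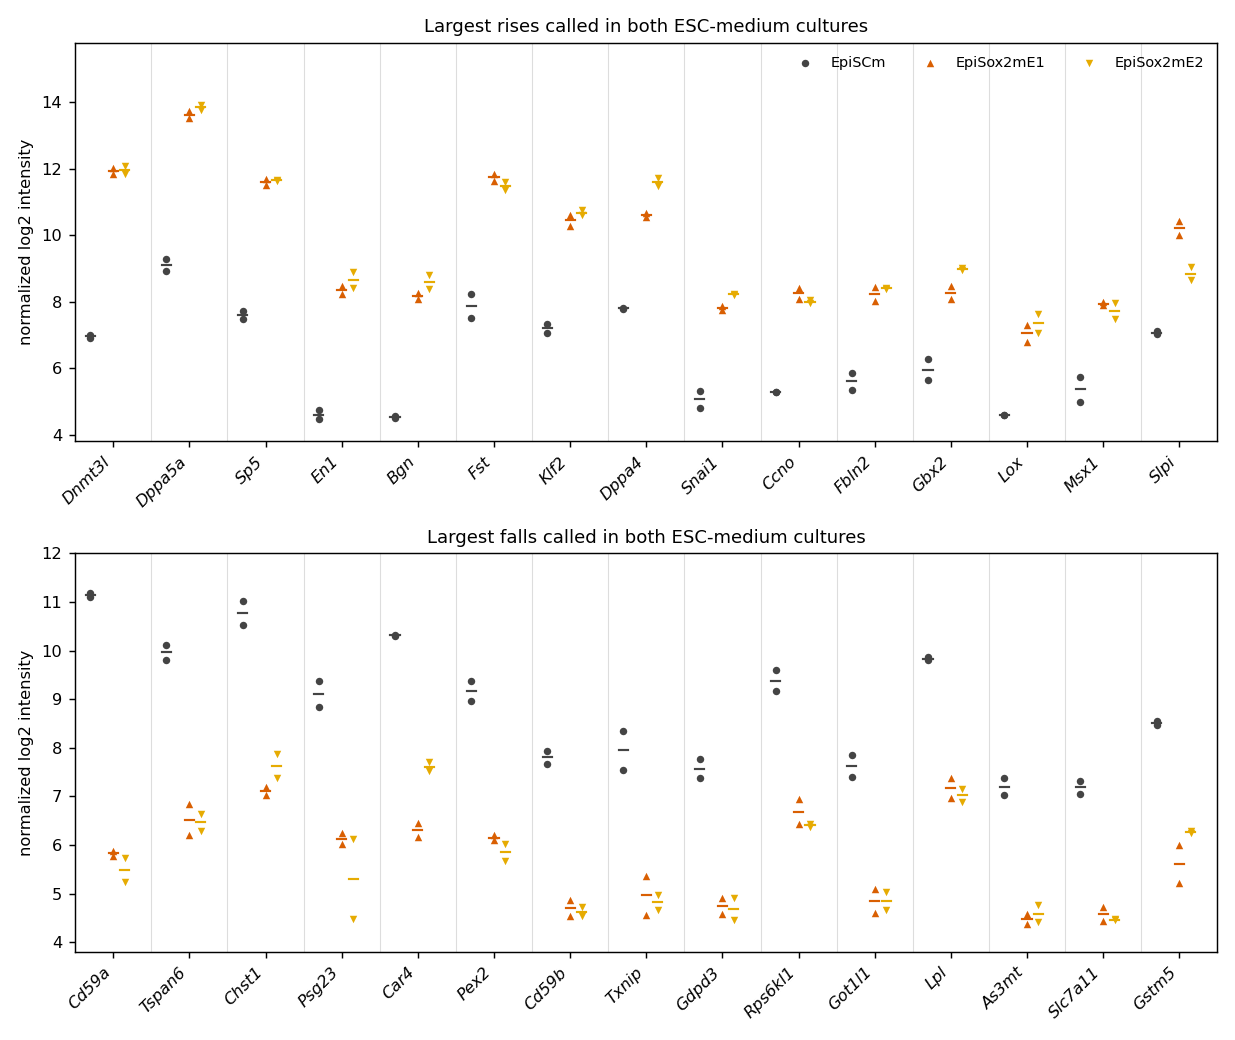
Log2 normalized intensity of the leading rises and falls on each array of EpiSCm, EpiSox2mE1 and EpiSox2mE2, 1 point per array and a bar at each group mean. The ESC-medium points lie apart from both parent points for each gene drawn, because the genes were chosen for that. Dnmt3l is at 11.85 to 12.10 against 6.91 and 7.01, and Cd59a at 5.24 to 5.88 against 11.19 and 11.11.

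The membrane genes Cd59a, Tspan6 and Chst1 gave the largest falls. Cd59a, which encodes a membrane protein that blocks complement, stood at 11.19 and 11.11 in EpiSCm, at 5.78 and 5.88 in EpiSox2mE1 and at 5.73 and 5.24 in EpiSox2mE2. It was 45.1-fold lower (log2 -5.50, SE 0.13, adjusted p = 6.4e-16), the largest fall among genes moved alike. Its paralog Cd59b, whose probe may share signal with it, went from 7.94 and 7.67 to undetected at 4.53 to 4.86, at least 5.30-fold lower.

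Tspan6, a tetraspanin membrane gene, was 11.1-fold lower, from 10.12 and 9.81 to 6.20 to 6.85. Chst1, a carbohydrate sulfotransferase, was 10.6-fold lower, from 10.52 and 11.02 to 7.03 to 7.87. Car4, a membrane carbonic anhydrase, was 10.25-fold lower, with EpiSCm at 10.32 and 10.31, EpiSox2mE1 at 6.16 and 6.45 and EpiSox2mE2 at 7.70 and 7.52. Both sets lay well below the parent, and EpiSox2mE1 the lower of the pair. Pex2, a peroxisome assembly gene, fell by 3.17 (log2) and Lpl, which encodes lipoprotein lipase, fell by 2.74.

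Txnip, an inhibitor of thioredoxin and of glucose uptake, stood at 7.54 and 8.35 in EpiSCm and was undetected on all ESC-medium arrays at 4.56 to 5.37, at least 5.85-fold lower. Slc7a11, the cystine transporter subunit, stood at 7.32 and 7.06 and was likewise undetected at 4.44 to 4.73, at least 3.46-fold lower. Psg23, Rps6kl1 and Gstm5 were also among the 15 largest falls, with log2 changes of -3.39, -2.83 and -2.57. Gdpd3, Got1l1 and As3mt completed them and were undetected on all ESC-medium arrays, at least 4.50-fold, 4.69-fold and 3.47-fold lower. Of the 227 genes that fell at least 2-fold in each, 61 (26.9%) were undetected on all 4 ESC-medium arrays, against 12.2% of all genes tested. The 227 were chosen by their low values on those arrays, so a higher share is built in and is no further result.

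Pou5f1 is the first of the core pluripotency genes. It did not pass the test (log2 0.03, SE 0.11, adjusted p = 0.88), with levels between 12.78 and 13.08 on the 6 arrays. Nanog, the homeobox factor of the core network, stood at 9.80 and 9.45 in EpiSCm, at 10.49 and 10.52 in EpiSox2mE1 and at 10.47 and 10.51 in EpiSox2mE2, a 1.83-fold rise (adjusted p = 2.72e-05). All ESC-medium arrays were above the parent arrays, yet Nanog was lower than in ESCm (log2 -2.11, adjusted p = 2.9e-11). Utf1, a chromatin factor of pluripotent cells, was lower in the pooled comparison (log2 -0.41, adjusted p = 0.0245) and was not moved alike. Of the 12 core genes tested 4 moved alike up (Sox2, Nanog, Zscan10 and Dppa4) and 0 down, against 9.12% and 11.5% of all genes, with a median change of 0.20. Zscan10, at 0.71, lost its call under some alternatives. The lists overlap: Sp5, Cdx2, Foxa2, Wnt3, Fgf8, Klf5 and Gbx2 each stand on more than one of them.

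Naive transcription factors split. Of 17 tested, 6 moved alike up (Klf2, Klf5, Esrrb, Gbx2, Tfap2c and Sp5) and 0 down, with a median pooled log2 change of 0.36 against -0.03 for all genes. Klf2, a Kruppel-like factor of naive cells, went from 7.34 and 7.07 to 10.29 and 10.61 and to 10.75 and 10.61. Esrrb, an orphan nuclear receptor of the naive network, stood at 7.49 and 7.79 in EpiSCm, at 8.96 and 8.74 in EpiSox2mE1 and at 9.66 and 9.24 in EpiSox2mE2, a 2.84-fold rise. Klf5 rose 3.64-fold, Tfap2c, a factor of naive and germ cells, 5.31-fold, and Gbx2, a homeobox target of LIF and Stat3, 6.39-fold.

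Zfp42, also known as Rex1 and a standard marker of naive cells, went opposite ways. It stood at 6.22 and 6.08 in EpiSCm, at 5.59 and 5.29 in EpiSox2mE1 and at 7.39 and 6.80 in EpiSox2mE2. The groups do not overlap: EpiSox2mE1 was below the parent (log2 -0.71) and EpiSox2mE2 above it (0.94), and the difference between them was 1.65 (SE 0.18, adjusted p = 2.74e-05). The call in EpiSox2mE1 was lost in fits over the 3 groups alone (adjusted p = 0.0822), over the 8 GOF18 arrays (0.0579) and without replicate 2 of EpiSox2mE1 (0.0805).

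Other naive factors stayed near background. Tcl1 was undetected on all 6 arrays, at 4.66 to 5.25, against 9.84 and 9.99 in ESCm. Nr0b1 was likewise undetected on all 6. Tbx3, a T-box factor of naive cells, was detected on 1 of the 4 ESC-medium arrays, and Nr5a2, a nuclear receptor that can bind the Pou5f1 promoter, on both arrays of EpiSox2mE2 (5.62 and 5.54) and on neither of EpiSox2mE1. Klf4 was near background, and its 3 kept probes differed: the one that stood for the gene did not pass (log2 -0.30), while another rose by 1.13 in EpiSox2mE2 (adjusted p = 0.000351) and did not pass in EpiSox2mE1 (-0.31).

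Among 17 tested effector genes of the naive state 8 moved alike up and 0 down, with a median of 0.46. They were Dnmt3l, Dppa5a, Fbxo15, Slc27a2, Dppa3, Ooep, Esrp1 and Gdf3, and became 5 under median scaling, in the fit over the 8 GOF18 arrays and in the fit over the 3 groups alone. Of these, Slc27a2 (log2 -3.33) and Esrp1 (-1.57) were lower in ESCf than in EpiSCf, so their rise was not towards the female ES cells. The others were higher in ESCf. Fbxo15, an F-box gene used as a reporter of pluripotency, rose 3.34-fold, from 7.65 and 7.56 to 9.19 to 9.61. Dppa3, which protects the maternal genome from demethylation, rose 3.14-fold, from 5.65 and 6.28 to 7.25 to 7.93. Ooep, a maternal-effect gene of oocytes, rose more in EpiSox2mE2 (log2 2.44) than in EpiSox2mE1 (0.48).

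The markers of primed epiblast moved both ways. Fgf5, the standard marker of that state, stood at 10.18 and 10.57 in EpiSCm, at 10.56 and 10.43 in EpiSox2mE1 and at 10.71 and 10.71 in EpiSox2mE2, and the pooled change did not pass (log2 0.23). Otx2, a homeobox factor of primed epiblast, did not pass either (log2 0.01). Of 21 tested members 5 moved alike down (Chst1, Car4, Car14, Krt18 and Uchl1) and 3 up (Foxa2, Fgf8 and Wnt3), with a median of -0.06. Car14, a carbonic anhydrase, went from 10.86 and 10.66 to 8.87 to 9.36, 3.31-fold lower. Those that rose are also on the streak list.

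**Figure D2:**
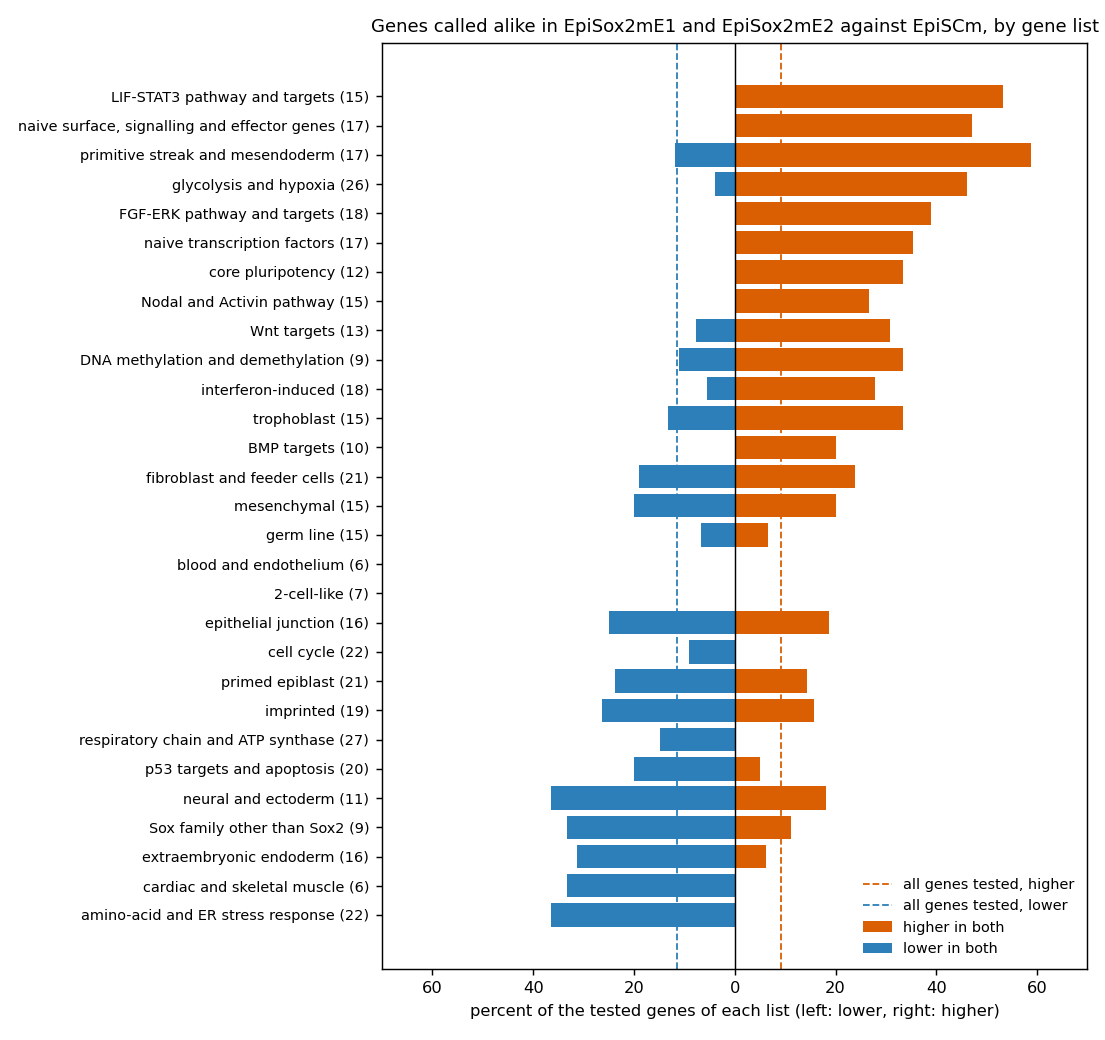
Percent of the tested genes of each list (number tested in brackets) that moved alike lower, to the left, or higher, to the right, with dashed lines at the 11.5% and 9.12% of all genes tested. The primitive streak list reaches furthest to the right, with 10 of 17 genes, and the amino-acid and ER stress list has bars to the left alone, with 8 of 22.

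Primitive streak genes were the list with the largest share of rises. Of 17 tested 10 moved alike up and 2 down, with a median change of 1.04 against -0.03 for all genes. The summed linear intensity was 2619 to 3022 in EpiSCm and 8337 to 9013 in the ESC-medium cells. Sp5 and Fgf8 carried most of that increase. Mixl1, a homeobox gene of streak mesoderm and endoderm, went from 5.39 and 5.77 to 7.62 and 7.58 and to 7.72 and 7.88, 4.34-fold higher. Foxa2, a forkhead factor of the anterior streak and endoderm, went from 5.05 and 5.39 to 6.90 and 6.87 and to 7.40 and 7.24, 3.69-fold higher.

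Fgf8, the FGF ligand of the streak, went from 10.12 and 9.40 to 11.47 and 11.37 and to 10.95 and 11.26, 2.83-fold higher. Gsc, the homeobox gene of the organizer, went from 8.11 and 8.67 to 9.84 and 9.92 and to 9.82 and 9.23, 2.49-fold higher. For each of these, all 4 ESC-medium arrays lay above both parent arrays. Wnt3, the ligand that starts the streak, rose 2.05-fold, and Eomes, a T-box factor of mesendoderm, rose 2.04-fold.

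The exceptions were Lhx1, a LIM homeobox gene of the organizer, which fell by 0.71 (log2), and Sox17, a definitive and extraembryonic endoderm factor, which was undetected in the ESC-medium cells, at least 1.15-fold lower. T, the gene of brachyury, had 0 probes here. Of 16 extraembryonic endoderm genes 1 moved alike up (Foxa2) and 5 down (Sox17, Dab2, Sparc, Col4a1 and Col4a2). Cardiac and skeletal muscle genes gave 0 up and 2 down of 6 (Tnnc1 and Acta1), and blood and endothelium genes gave 0 of 6 either way.

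Of 13 Wnt targets and components 4 moved alike up (Sp5, Axin2, Cdx2 and Wnt3) and 1 down (Sfrp1). Axin2, the feedback scaffold of the Wnt pathway, went from 8.28 and 7.44 to 10.10 and 9.91 and to 9.64 and 9.79, 4.0-fold higher. Sfrp1, a secreted Wnt antagonist, went from 7.58 and 7.37 to 4.86 to 5.85, 3.82-fold lower.

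Of 18 FGF-ERK genes 7 moved alike up and 0 down, with a median of 0.44. Dusp4, an ERK phosphatase induced by the pathway, stood at 8.56 and 8.48 in EpiSCm and at 10.66 to 10.81 in the ESC-medium cells, 4.62-fold higher. Fos rose 3.73-fold, Etv5, an ETS factor downstream of FGF, 2.55-fold and Dusp6, a further ERK phosphatase, 2.12-fold. Spry4 and Myc were the others besides Fgf8.

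Of 15 LIF-STAT3 genes 8 moved alike up and 0 down, with a median of 0.57: Gbx2, Klf5, Pim1, Bcl3, Junb, Sgk1, Myc and Pim3. Pim1, a kinase gene induced by Stat3, was undetected in EpiSCm at 4.55 and 4.36 and reached 5.80 to 6.64, at least 1.71-fold higher. Bcl3 rose 2.68-fold, from 6.10 and 5.69 to 7.19 to 7.55. Stat3 itself passed in the pooled comparison (log2 0.54, adjusted p = 0.0113) but was not moved alike, and Socs3, the feedback inhibitor, did not pass (0.06). The 8 became 5 under median scaling and in the fit over the 3 groups alone.

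In the Nodal and Activin list 4 of 15 moved alike up (Fst, Inhba, Skil and Smad2) and 0 down, with a median of 0.07 that turned to -0.01 under median scaling. Inhba, which encodes the subunit of Activin A, was at least 1.47-fold higher. Skil and Smad2, at log2 0.54 each, lost their calls under some alternatives, and the list's 4 rises became 1 under median scaling and 2 in the fits over fewer arrays or without replicate 1 of EpiSCm. Of 10 BMP targets 2 moved alike up, Msx1 and Id1 (2.08-fold), and 0 down.

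Of 26 glycolysis and hypoxia genes 12 moved alike up and 1 down (Vegfa), with a median of 0.53. Pdk1, the kinase that inhibits pyruvate dehydrogenase, went from 8.62 and 8.25 to 10.24 and 10.23 and to 10.42 and 10.18, 3.56-fold higher. Eno2, an enolase, rose 2.69-fold, Ndrg1, a hypoxia-responsive gene, 2.54-fold, and Pfkp, a phosphofructokinase, 2.37-fold. The 12 became 5 under median scaling and 6 in a fit over the 3 groups alone. Respiratory chain genes gave 0 up and 4 down of 27, a share near the 11.5% of all genes, with a median of -0.21, and the 4 became 1 in the fits over fewer arrays and without replicate 2 of EpiSCm or replicate 1 of EpiSox2mE1.

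Of 22 amino-acid and ER stress genes 0 moved alike up and 8 down, with a median of -0.35. Besides Slc7a11 they were Atf5, Chac1, Phgdh, Asns, Atf3, Slc7a5 and Xbp1. Atf5, a stress-induced bZIP factor, went from 8.32 and 9.30 to 6.73 to 7.28, 3.38-fold lower. Chac1, which degrades glutathione, went from 11.76 and 11.64 to 10.34 to 10.94, 2.15-fold lower. Asns, asparagine synthetase, fell by 0.80 (log2), and Phgdh, the first enzyme of serine synthesis, fell by 0.86. The 8 became 5 in the fit over the 8 GOF18 arrays and without replicate 1 of EpiSox2mE1, and 4 in the fit over the 3 groups alone.

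The remaining lists are given by their counts, to be read against the 9.12% of all genes moved alike up and 11.5% down. Interferon-induced genes gave 5 up and 1 down of 18, with Ifitm1 2.53-fold and Oasl2 2.02-fold higher. Trophoblast genes gave 5 up and 2 down of 15, neural and ectoderm genes 2 up (En1 and Gbx2) and 4 down of 11, and imprinted genes 3 up and 5 down of 19, with Nnat at -2.15 (log2) and H13 at -1.48 the largest falls. Epithelial junction genes gave 3 up and 4 down of 16, and mesenchymal genes 3 and 3 of 15. DNA methylation genes gave 3 up and 1 down of 9. Sox genes other than Sox2 gave 1 up (Sox13) and 3 down (Sox12, Sox17 and Sox21) of 9, of which Sox12 and Sox21 lost their calls under some alternatives. Germ line genes gave 1 up and 1 down of 15, p53 targets 1 and 4 of 20, cell cycle genes 0 and 2 of 22, and 2-cell-like genes 0 of 7 either way.

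The ESC-medium cells were also set against EpiSox2mL2, which carries Sox2 in EpiSC medium. Whether EpiSox2mL2, EpiSox2mE1 and EpiSox2mE2 are 1 clone is not given, so medium and line cannot be told apart in that comparison. Of all genes 1554 (17.4%) were higher and 1875 (21%) lower in the ESC-medium cells than there, and 731 and 1802 under median scaling. This comparison shares the 4 ESC-medium arrays with the main one, so an overlap of their calls is no independent evidence, and values are given side by side. On the streak list 13 of 17 genes were higher in ESC medium than in EpiSox2mL2 and 0 lower. Its summed intensity was 1053 to 1087 in EpiSox2mL2, below the parent's.

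Fgf8 stood at 6.27 and 6.13 in EpiSox2mL2, against 10.12 and 9.40 in EpiSCm and 10.95 to 11.47 in the ESC-medium cells, which were 33.4-fold above EpiSox2mL2. Gsc was undetected in EpiSox2mL2 at 5.09 and 4.92, at least 22.2-fold below the ESC-medium cells. Sp5, at 6.71 and 7.03, was 27.1-fold lower there, En1 at least 9.63-fold lower and Fst 11.9-fold lower. Lhx1, a fall against EpiSCm, was at least 2.12-fold above EpiSox2mL2, where it was undetected. Fgf8 and Gsc in EpiSox2mL2 thus lay below both parent arrays, while in ESC medium they lay above them. Mixl1 and Foxa2 were also higher in ESC medium than in EpiSox2mL2, by log2 2.93 and 2.63. Both were near background in EpiSCm, where Foxa2 was detected on 1 array, so a fall below the parent could not be read for them.

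Several naive genes were as high or higher in EpiSox2mL2. Of 17 naive factors 4 were higher and 8 lower in ESC medium than in EpiSox2mL2, and of 17 naive effectors 3 were higher and 8 lower. Esrrb (log2 -1.93) and Zfp42 (-2.73) were lower in ESC medium. Dppa5a, at 13.48 and 13.63 in EpiSox2mL2, did not pass the test of the difference (log2 0.19, adjusted p = 0.328), nor did Fbxo15 (-0.08). Dnmt3l was higher in ESC medium by 1.61, Klf2 by 0.70 and Nanog by 0.98. Fgf5 was higher in ESC medium by 2.74. The rise of Sox2 over EpiSox2mL2 (log2 0.31, adjusted p = 0.0346) lost its call under median scaling (adjusted p = 0.4) and when probes were averaged (0.162). Lower in ESC medium than in EpiSox2mL2 were Txnip (at least 23.1-fold), Cd59a (22.8-fold), C1ql2 (at least 11.6-fold), Got1l1 and Acta1.

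**Figure D3:**
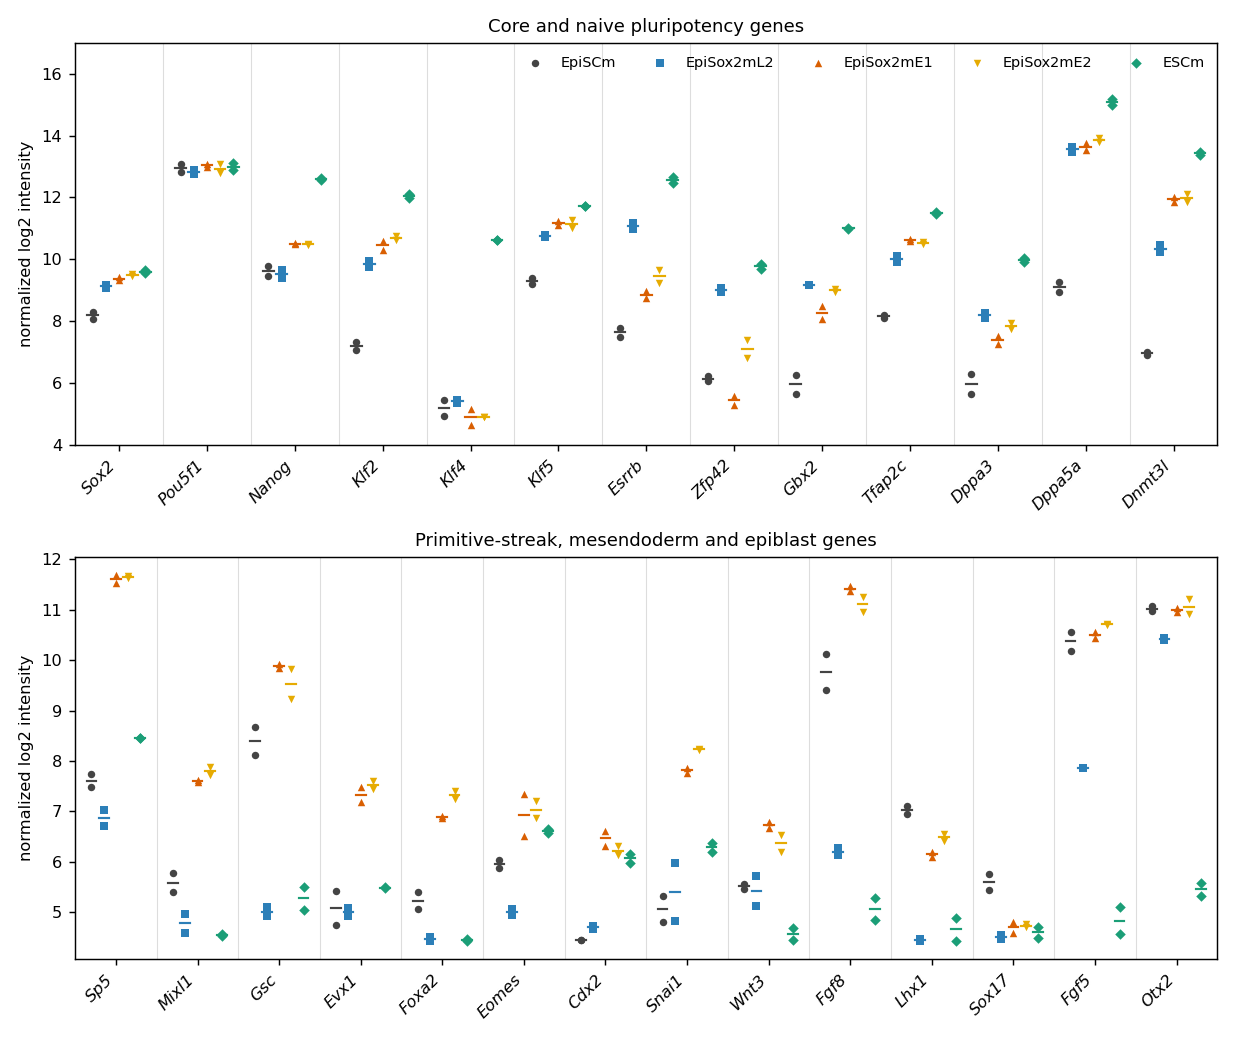
Log2 normalized intensity of naive, primed and streak genes in EpiSCm, EpiSox2mL2, EpiSox2mE1, EpiSox2mE2 and ESCm, 1 point per array and a bar at each group mean. Fgf8 and Gsc are lower in EpiSox2mL2 than in EpiSCm and higher in the ESC-medium cells, while Zfp42 is highest in ESCm at 9.86 and 9.70.

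The ESC-medium cells were also set against male ES cells. ESCm lies among the brighter arrays, so array set and cell state cannot be told apart in that comparison. Of all genes 3671 (41.1%) were higher and 2647 (29.6%) lower in the ESC-medium cells than in ESCm, and 1666 and 4294 under median scaling. Of 17 naive factors 14 were lower than in ESCm and 1 higher, and of 17 naive effectors 14 were lower and 2 higher. Log2 differences from ESCm were -3.42 for Esrrb, -3.52 for Zfp42, -2.37 for Dppa3, -1.48 for Klf2 and -1.35 for Dppa5a. Ooep was 45.8-fold lower, the largest gap among genes moved alike, followed by Aard, Idh2, Map2k1 and Gab1. In the other direction Fst was at least 74.0-fold and Fgf8 at least 57.7-fold higher than in ESCm, Gsc 21.6-fold and Fgf5 at least 36.5-fold. Slpi and Epha1 were the others of the 5 largest.

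Female ES cells against female EpiSCs gave a further scale for the genes moved alike, chosen after earlier results were known. Their arrays are not among the 6 compared. They did share the normalization, the probe filter and the estimate of spread with the main fit, so the overlap is not independent of the calls. There 2445 of all genes (27.4%) were higher and 2945 (33%) lower in ESCf, and 1872 and 3547 under median scaling. Of the 815 rises 364 (44.7%) were higher in ESCf than in EpiSCf, which is 14.9% of the 2445, and 182 (22.3%) were lower. Of the 1029 falls 511 (49.7%) were lower in ESCf, which is 17.4% of the 2945, and 193 (18.8%) were higher. Among changes of at least 2-fold in each the shares were 58.8% of the rises and 57.7% of the falls.

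The leading genes went both ways on that scale. Dppa5a, Dnmt3l, Dppa4 and Klf2 were undetected in EpiSCf and at least 703-fold, 198-fold, 116-fold and 89.6-fold higher in ESCf. Chst1 was at least 57.8-fold and Cd59a 17.8-fold lower there. Fgf8 (at least 19.9-fold), Slpi (at least 1.38-fold) and Gbx2 (2.71-fold) were lower in ESCf, whereas all rose in the ESC-medium cells. Gsc did not pass between ESCf and EpiSCf (log2 -0.22), nor did Mixl1 and En1, which were undetected in both.

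Of all genes 100 (1.12%) were higher and 113 (1.27%) lower in EpiSox2mE2 than in EpiSox2mE1, 48 of them at least 2-fold, and 53 were genes moved alike. Median scaling gave 18 and 136. The total of 213 became 100 without replicate 2 of EpiSox2mE1, 29 over the 8 GOF18 arrays and 17 over the 3 groups alone. Rbmxl2, an RNA-binding gene known from testis, was undetected in EpiSCm and EpiSox2mE1 at 4.48 to 4.88, and stood at 7.64 and 7.45 in EpiSox2mE2 and at 9.44 and 9.49 in EpiSox2mL2. EpiSox2mE2 was at least 4.41-fold above EpiSox2mE1.

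Usp9y, a Y-linked deubiquitinase gene, was likewise low in EpiSox2mE1, at 4.47 and 4.41. It stood at 7.18 and 7.27 in EpiSox2mE2 and at 6.87 and 7.15 in EpiSox2mL2. It was undetected in EpiSCm and in ESCm. Tex13b was at least 3.22-fold, Pla2g1b 4.88-fold and Dpp4 at least 2.61-fold higher in EpiSox2mE2, and all were also high in EpiSox2mL2 and low in EpiSCm.

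Vstm2l, which encodes an immunoglobulin-domain protein, went the other way, at 8.45 and 8.79 in EpiSCm, 11.83 and 11.51 in EpiSox2mE1, 8.10 and 7.83 in EpiSox2mE2 and 12.55 and 12.37 in EpiSox2mL2. EpiSox2mE2 was 13.1-fold lower than EpiSox2mE1. Cited1, a transcriptional coregulator, was at least 4.71-fold lower, and Id2, an inhibitor of bHLH factors, was also lower (log2 -1.56). Ldhd and Sgpl1 were the others of the 5 largest. Id2 and Sgpl1 lost their calls in a fit over the 3 groups alone.

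Among genes moved alike the largest differences between EpiSox2mE2 and EpiSox2mE1 were Ooep (3.89-fold higher in EpiSox2mE2), Lrrn1, Car4, Bcas1 and Pdyn on the higher side and Slpi, Espn, Prr18, Nnat and Gnb5 on the lower side. Of these Bcas1, Pdyn, Slpi, Espn, Nnat and Gnb5 lost their calls in the fit over the 3 groups alone.

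**Figure D4:**
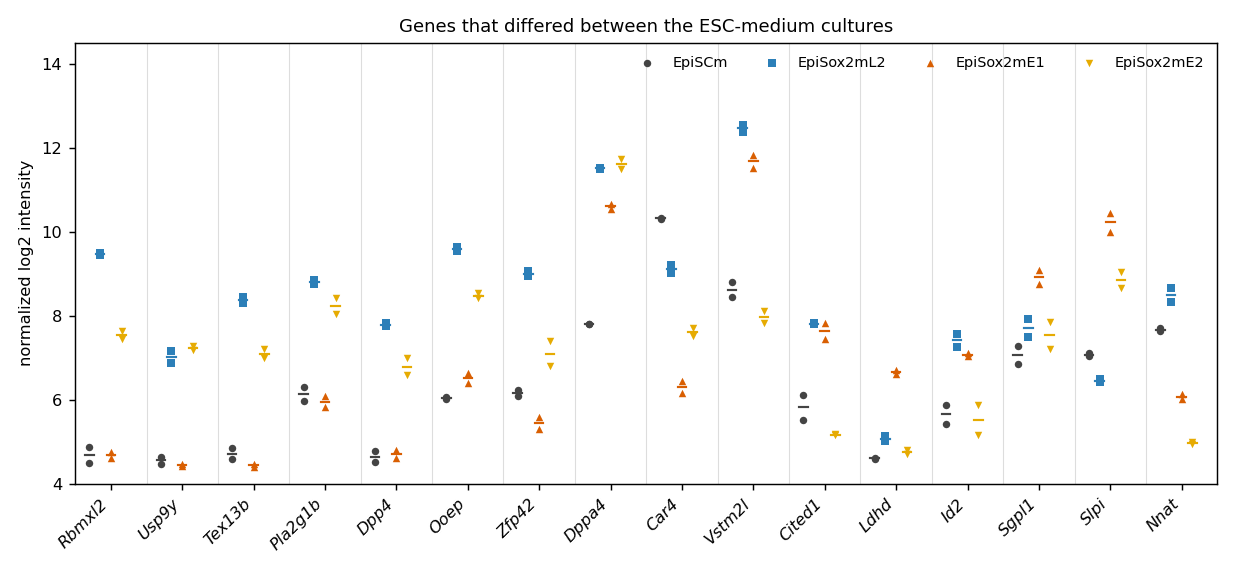
Log2 normalized intensity of genes that differed between EpiSox2mE2 and EpiSox2mE1, on each array of EpiSCm, EpiSox2mL2, EpiSox2mE1 and EpiSox2mE2, with a bar at each group mean. Of these 4 groups Rbmxl2 and Usp9y are high in EpiSox2mE2 and EpiSox2mL2 and undetected in the others, and Vstm2l is highest in EpiSox2mE1 and EpiSox2mL2.

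Chromosome 11 held more of the falls than other chromosomes. Of its 788 tested genes 166 (21.1%) moved alike down and 54 (6.85%) up, against 11.5% and 9.12% of all genes. The other 19 chromosomes had 7.86% to 15.6% of their genes moved alike down and 6.25% to 13% up. The median pooled change was -0.153 on chromosome 11 and -0.056 to 0.044 on the others, and the same median was -0.168 in EpiSox2mE1 and -0.151 in EpiSox2mE2.

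The shift was small on each array but separated the groups. The median of chromosome 11 genes minus that of other autosomes, each gene centred on the 8 GOF18 arrays, was 0.095 and 0.083 in EpiSCm, 0.055 and 0.044 in EpiSox2mL2, -0.073 and -0.078 in EpiSox2mE1 and -0.071 and -0.064 in EpiSox2mE2. Against EpiSox2mL2 the median was -0.116 on chromosome 11 and -0.041 to 0.102 on the others. Split by gene order into 4 blocks of 197 genes, the chromosome had 38, 51, 32 and 45 genes moved alike down, so the falls were spread along it. The share of chromosome 11 genes moved alike down was 8.76% in the fit over the 3 groups, where 5.11% of all genes moved so, 13.1% in the fit over the 8 GOF18 arrays (7.14% of all), and 13.5% without replicate 2 of EpiSCm (7.93% of all). Copy number was not measured, and its part in the shift was not tested.

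**Figure D5:**
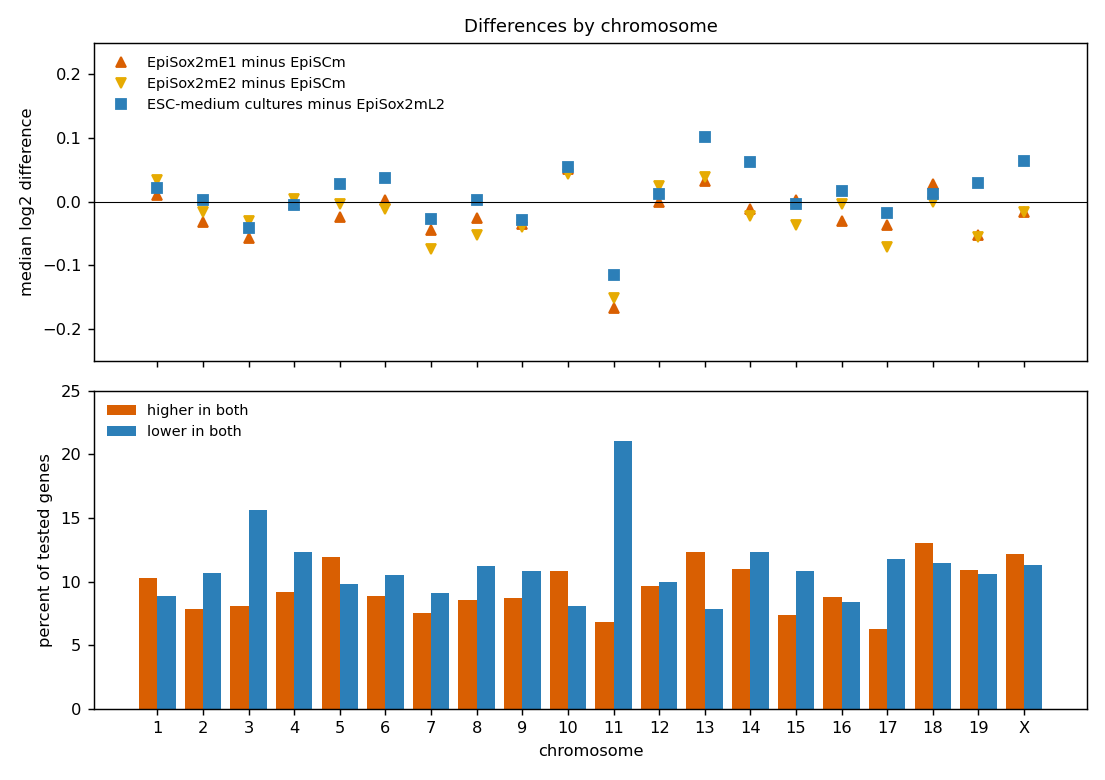
By chromosome, the median log2 difference of its tested genes in EpiSox2mE1 and EpiSox2mE2 against EpiSCm and in the ESC-medium cells against EpiSox2mL2 (points), and the percent of its tested genes that moved alike higher or lower (bars). Chromosome 11 has the lowest points, at -0.168, -0.151 and -0.116, and the tallest bar of lower genes, at 21.1%.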

How the data were processed

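The authors deposited non-normalized intensity values for 25697 probes on 24 Illumina MouseRef-8 v2 arrays, with a deposited detection p-value for each probe on each array, and processed log2 values whose columns, per the file headers, carry no account of how they were made. Each of the authors' log2 columns has a median of 3.68, and their correlation with the values used here was 0.991 across genes. Per the submitters' processing notes, BeadStudio 3.2, lumi and RMA were among the tools, in no stated role. The direction of the log2 values follows the intensities, and their background handling is not given in the sources used here.

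Starting from the intensities, background was removed with normexp from the detection p-values (limma 3.58.1, R 4.3.3, offset 16), followed by quantile normalization over 24 arrays and log2. Of the probes 23978 had 1 gene symbol in the platform table and 1719 had none, and 23962 matched RefSeq GRCm38.p6 by Entrez identifier. Probes detected at p under 0.01 on both arrays of at least 1 of 12 groups were kept (13082, of which 12324 were named). The kept probe with the highest mean stood for each of 8932 genes, and 2395 genes had several kept probes. The limma model held a mean for each group and used the whole set of arrays (12 residual degrees of freedom, 6.13 prior). Tests were two-sided, moderated by eBayes and adjusted by Benjamini-Hochberg over all genes tested, and called at an adjusted p under 0.05.

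Where no array of the dimmer side detected a gene, the fold is "at least" the mean of the brighter side over the dimmer side, with each dim array taken as the higher of its lowest signal well above background and the probe's own. Summed list levels are sums of linear normalized intensities. Samples were grouped by their titles, and no deposited column was left unmapped. Tested alternatives were the background correction, offset, scaling, arrays in the fit, starting values, filter, choice of probe, replicate block and each array left out.

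The rule for named genes took the markers Fgf5, Zfp42, Esrrb, Klf4, Nanog, Pou5f1 and Sox2, the 15 largest rises and 15 largest falls among genes moved alike with groups that did not overlap and detection on all arrays of the higher side, up to 4 genes moved alike per list, and the 5 largest differences in each direction for the other comparisons. Further members of the lists were chosen to describe a list after their values were seen, and Tnc and H2bc12 entered through the octamer in their promoters. The members and lists were chosen with earlier results of these data known. Promoter motifs were counted as letters on both strands.

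The tests were also run on simulated data with known changes, with the spread taken from the main fit. For changes set alike in EpiSox2mE1 and EpiSox2mE2, the moved-alike rule recovered 14.1% at 1.5-fold, 81.9% at 2-fold and 100% at 4-fold. A gene not moved alike may therefore still have changed by a small amount. Raw scans and probe sequences were not used here.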

Additional observations from a re-analysis of the deposited data

Results flagged for a closer look

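Of the genes that the rule named for the main comparison, 8 passed the test of the difference between EpiSox2mE2 and EpiSox2mE1 (limma, Benjamini-Hochberg over all genes). Zfp42 was 1.65 (log2) higher in EpiSox2mE2 (adjusted p = 2.74e-05), being below the parent in EpiSox2mE1 and above it in EpiSox2mE2. Slpi differed by -1.37, having risen by 3.15 in EpiSox2mE1 and 1.78 in EpiSox2mE2. Car4 differed by 1.31, having fallen by 4.01 and 2.70. Nnat, an imprinted membrane gene, differed by -1.1 (adjusted p = 0.000524) and was undetected in EpiSox2mE2, at least 1.59-fold lower. Slc27a2, a fatty acid transporter, differed by 1.02, Dppa4 by 1.01, Anxa2, an annexin, by -0.86, and Xlr4a, an X-linked gene detected on 1 of the 4 ESC-medium arrays, by 0.74. Ooep, Nr5a2 and Tbx3, chosen for mention after their values were seen, also passed this test, with adjusted p-values of 3.99e-09, 0.000274 and 0.00468. In each of these except Zfp42 and Nr5a2 the direction against EpiSCm was the same in both. Nr5a2 stood at log2 -0.20 in EpiSox2mE1 and 0.93 in EpiSox2mE2, and was undetected in EpiSCm and EpiSox2mE1.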

How the results depend on the processing

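The fits with fewer arrays gave fewer calls. With the 8 GOF18 arrays alone, 1154 genes moved alike, with 1654 called in EpiSox2mE1, 1652 in EpiSox2mE2 and 29 between them. With the 3 groups alone, 805 moved alike, with 1628 called in the pooled comparison, 1180 in EpiSox2mE1, 1192 in EpiSox2mE2 and 17 between them. Without one array in turn, the pooled comparison gave 2132 to 3063 calls, EpiSox2mE1 1861 to 2473, EpiSox2mE2 1842 to 2506, the difference between them 100 to 291 (100 without EpiSox2mE1 replicate 2), the comparison with EpiSox2mL2 2452 to 3396, with ESCm 5479 to 6252, and ESCf with EpiSCf 4677 to 4730, and 1286 to 1877 moved alike. Same-numbered arrays share only a number: their deviations correlated at -0.045 (EpiSCm and EpiSox2mE1), -0.172 (EpiSCm and EpiSox2mE2) and -0.166 (EpiSox2mE1 and EpiSox2mE2). With the replicate block, 1808 moved alike, and with the numbers of EpiSox2mE2 crossed, chosen after seeing the data, 1854. Of 3137 recomputed values of named genes 3067 stayed on the same side of the threshold, 57 lost the call, 10 gained it and 3 reversed. A change of sign was counted as reversed only where the value was called in at least 1 of the fits. Many of the genes were named for large changes in these data, so a high share of unchanged calls is partly built in. Klf4 in EpiSox2mE2 reversed to 1.13 (log2, filter over the 3 groups) and 0.45 (mean of probes), where other probes enter, and Pou5f1 against ESCm to 0.54 (mean of probes). A slide block was not run because the headers give no slide. Detection limits bound the changes of genes near background.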

Other observations

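Klf4, which 1 of the 6 arrays detected on the probe that stood for the gene, was detected on that probe on both arrays of male ES cells, as was Tbx3 at 9.86 and 9.77. Fos, an immediate early gene, varied more between the EpiSox2mE2 arrays (7.06 and 7.74) than between the parent arrays (5.78 and 5.79).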
